A study of Mus musculus with 12 samples.

Results

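Lungs of mice labelled Has2+/- were compared with lungs of wild-type (WT) mice, all given saline, by RNA sequencing across all genes. The comparison uses 6 of the series' 12 libraries, the 3 whose column code stands for Has2+/- with saline and the 3 whose code stands for WT with saline. All mice were of the C57BL/6 strain; ages and sexes are not given in the labels. Both genotypes were also sensitized to ovalbumin, a protein allergen, and then exposed to it through the nose (3 libraries each), and these 6 libraries give the genotype difference after ovalbumin and add to the estimate of the spread and to the choice of genes tested, but not to the saline means. The labels give Has2+/- as a heterozygous knockout without naming the deleted part of the gene, and they do not say whether each library came from a separate mouse, so the p-values measure only the spread between these samples. The columns are numbered, and the numbers name libraries below: saline libraries are 4, 5 and 6 for WT and 10, 11 and 12 for Has2+/-, and ovalbumin libraries are 1, 2 and 3 for WT and 7, 8 and 9 for Has2+/-. Throughout, Has2+/- means the libraries labelled so.

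Hyaluronan is a long, unbranched sugar polymer of the extracellular matrix, extruded through the plasma membrane by the hyaluronan synthases HAS1, HAS2 and HAS3. HAS2 is the synthase without which mouse embryos die from failed heart development, whereas mice with a single intact allele are viable. In the lung the polymer is cleared by hyaluronidases and scavenger receptors and is sensed through CD44 and Toll-like receptors, and its fragments have been studied as signals in airway inflammation.

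Values are the authors' normalized expression values, read counts per gene forced to the same distribution in every library; the number of reads behind a library is therefore unknown. A difference is the log2 difference of (value + 1), Has2+/- minus WT, from a limma fit over 19017 genes, and a gene passed where its Benjamini-Hochberg adjusted p over those genes was under 0.05. Read counts were inferred from where the deposited gene order restarts along the sorted values of a library, each restart taken as 1 more read. By that inference, from 18416 to 18862 genes had reads in each saline library, and genes with 10 reads sat at a mean of 8.49 to 11.5 units. The lung markers Sftpc and Scgb1a1, of alveolar type 2 and club cells, were among the highest values in every library. Genes of basal and squamous epithelium summed to 32828, 2048 and 24458 units in WT libraries 4, 5 and 6 and to 37393, 26985 and 140 units in Has2+/- libraries 10, 11 and 12. Skeletal muscle genes were likewise lowest in libraries 5 and 12 of their groups, with sums of 10563, 3812 and 9640 units against 13298, 9118 and 1095 units. Library 12 correlated more closely with WT library 5 (Spearman 0.988 across genes) than with libraries 10 and 11 of its own group (0.979 and 0.981). Results that rest on libraries 5 and 12 are therefore also given without them.

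Has2 itself was expressed at a low level in every saline library. It stood at 6.67, 4.42 and 6.08 units in the WT libraries and at 7.67, 8.17 and 7.42 units in the Has2+/- libraries, so that the groups did not overlap and the Has2+/- libraries were the higher ones. The means were 5.72 ± 1.17 and 7.75 ± 0.382 (SD, n = 3), a log2 difference of 0.39 with a 95% interval from -0.46 to 1.25 and an adjusted p of 0.978. A level at 50% of the WT mean would be a log2 difference of -0.80, which lies outside that interval. In every saline library, however, Has2 was below the mean value of genes with 10 reads (8.49 to 11.5 units). By the inference above each value rests on about 10 reads or fewer. The gap between the groups was not tested against the error of counting so few reads. Since a whole-gene value can include reads from undeleted exons of either allele, the Has2 level does not check the genotype labels. Has1 (WT 13.5, 25.3 and 25.8 units, Has2+/- 32.3, 22.3 and 37.7 units) and Has3 (WT 93.4, 119 and 94.1 units, Has2+/- 134, 123 and 98.7 units) overlapped between the groups. Their log2 differences of 0.52 and 0.21 did not pass (adjusted p = 0.928 and 0.958).

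Across all genes, 2 passed as higher in Has2+/- lungs (0.0105% of those tested) and 0 passed as lower (0%). The 2 genes were Hamp2, which encodes hepcidin 2, and Clec2d, which encodes a C-type lectin that is bound by NKR-P1 receptors of natural killer cells. At an unadjusted p under 0.05 there were 496 genes higher (2.61%) and 573 lower (3.01%). The authors' deposited table, made with another test, has 4 genes higher and 3 lower at an FDR-corrected p under 0.05: Hamp2, Fos, Egr1 and Clec2d, and Cfd, Ngp and Cyp2e1. In 1339 genes (7.04%) all 3 Has2+/- libraries lay above all 3 WT libraries, and in 1202 genes (6.32%) all lay below; such genes are said below to lie apart. The median log2 difference over all genes was 0.00, and 90% of the genes lay between -0.58 and 0.58. Genes with a mean of at least 100 units had a median 95% half-width of 0.21 on the log2 scale.

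**Figure D1:**
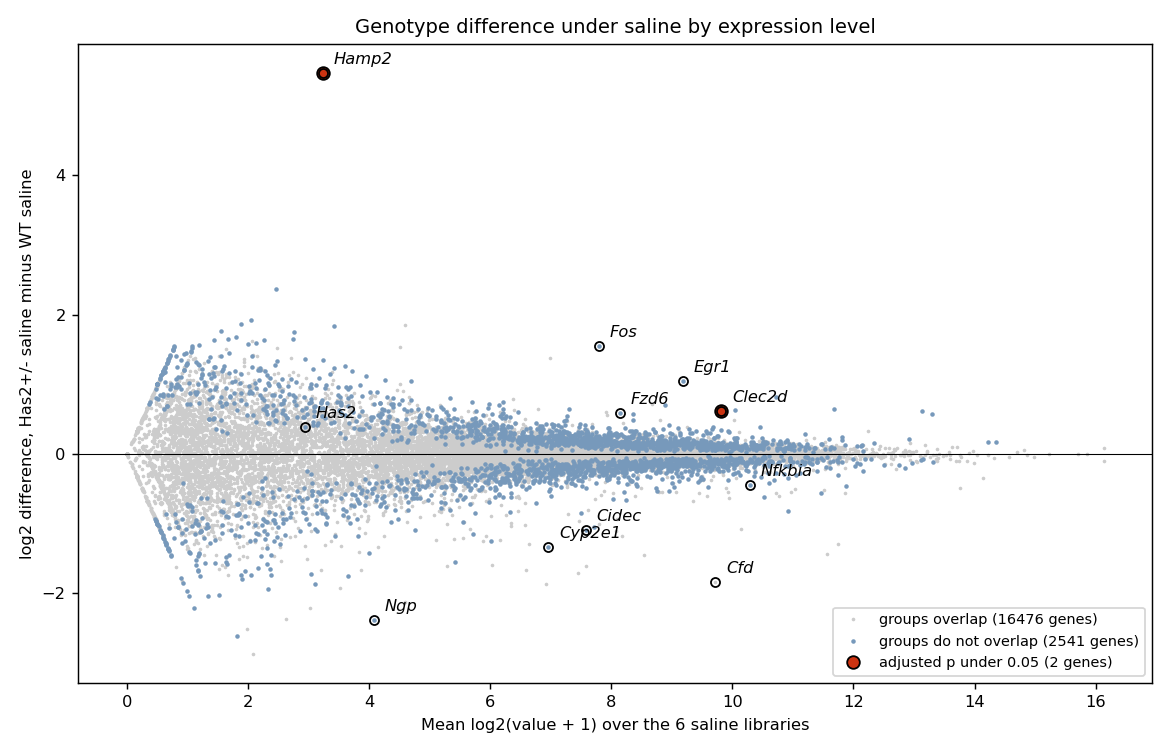
Log2 difference between Has2+/- saline and WT saline libraries (vertical axis) against the mean log2(value + 1) over the 6 saline libraries (horizontal axis), 1 point per gene for 19017 genes. Hamp2 at 5.47 and Clec2d at 0.62 are the 2 filled red points; the labelled open circles, such as Fos at 1.55 and Ngp at -2.38, did not pass.

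Hepcidins are small peptides. Hepcidin 1, the product of Hamp, is the liver hormone that closes the iron exporter ferroportin, and mice carry Hamp2 as a neighbouring copy on the same strand of chromosome 7. The promoters of the copies are shown because the genes lie side by side and are nearly the same in sequence, while only Hamp2 passed; the promoter of Clec2d is shown as that of the other gene that passed. Each line gives the 250 bases before the RefSeq transcription start (build GRCm38.p6), from chr7:30924182-30924431 (minus strand) for Hamp2, chr7:30944030-30944279 (minus strand) for Hamp and chr6:129180365-129180614 (plus strand) for Clec2d. The deposited annotation starts Hamp2 at 30924681 on the minus strand, so the Hamp2 window, set by the RefSeq start, lies inside that gene span. Capitals mark letters of the searched motifs: GGCGCC, the core of the bone morphogenetic protein response element of hepcidin promoters, TTCTTGGAA, the STAT-type site, and TGAGTCA, the AP-1 site.
Hamp2: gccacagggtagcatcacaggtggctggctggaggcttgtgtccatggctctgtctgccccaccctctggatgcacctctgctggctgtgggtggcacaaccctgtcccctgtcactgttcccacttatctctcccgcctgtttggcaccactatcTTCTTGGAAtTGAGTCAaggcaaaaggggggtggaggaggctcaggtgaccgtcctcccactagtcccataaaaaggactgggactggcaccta
Hamp: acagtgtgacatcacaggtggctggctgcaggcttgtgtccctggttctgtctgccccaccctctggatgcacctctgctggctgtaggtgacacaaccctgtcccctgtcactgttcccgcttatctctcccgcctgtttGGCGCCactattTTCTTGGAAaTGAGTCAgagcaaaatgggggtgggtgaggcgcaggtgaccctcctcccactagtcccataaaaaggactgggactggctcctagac
Clec2d: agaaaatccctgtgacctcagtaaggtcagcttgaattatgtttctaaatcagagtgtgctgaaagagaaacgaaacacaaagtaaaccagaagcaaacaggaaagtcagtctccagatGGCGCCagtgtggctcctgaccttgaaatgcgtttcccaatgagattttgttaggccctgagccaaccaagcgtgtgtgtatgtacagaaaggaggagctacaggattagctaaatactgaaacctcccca

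The Hamp and Hamp2 windows were identical at 91.9% of 247 aligned bases. Both hold the STAT-type and AP-1 letters, at 94 to 86 and 84 to 78 bases before the start in Hamp2 and at 97 to 89 and 87 to 81 bases before it in Hamp. The GGCGCC of Hamp, at 109 to 104 bases before the start, is changed in Hamp2 by G4A, counted from 1 at the first base of the motif. The Clec2d window holds GGCGCC at 131 to 126 bases before its start. Searched on both strands of 32851 promoter windows of the same length, GGCGCC was in 9.59%, TTCTTGGAA in 0.365% and TGAGTCA in 4.46%. A match of letters is a description of the window only.

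Hamp2 (ENSMUSG00000056978, chr7:30922389-30924681, mm10, minus strand) was near absent in 9 libraries and present in the 3 Has2+/- saline libraries. It stood at 1.83, 0 and 0 units in WT libraries 4, 5 and 6 and at 62.1, 59.2 and 63.9 units in Has2+/- libraries 10, 11 and 12. The Has2+/- values lay within 5 units of each other and far from the WT values, library 12 included. All 6 ovalbumin libraries of both genotypes were listed at 0. The saline means were 0.611 ± 1.06 and 61.7 ± 2.40 units (SD, n = 3), and Hamp2 rose by 5.47 on the log2 scale (SE 0.471, 95% interval 4.47 to 6.47, adjusted p = 4.74e-05). Because the WT values are near 0, the size of this difference depends on the pseudocount: it was 3.59 with 5 added in place of 1, and 7.85 with 0.1 added, where the adjusted p was 0.120.

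Hamp, the neighbouring gene, overlapped between the groups, at 5.75, 14.0 and 17.8 units in WT and 8.67, 10.1 and 11.9 units in Has2+/- lungs (log2 difference -0.15, adjusted p = 0.996). The annotated Hamp and Hamp2 transcripts, of 410 and 420 bases, are identical at 94.6% of aligned bases and share a longest exact run of 87 bases, so how reads were divided between them depends on the counting, which is not given in the sources. Liver markers were near 0 in every library: 4 of the 8, among them Ttr and Fgb, were listed at 0 in all saline libraries, and the 8 together summed to 7.92 to 18.7 units in WT and 10.4 to 26.3 units in Has2+/- saline libraries. Of the 12 iron genes tested, Hamp2 was the only one that passed, and 3 lay apart with Has2+/- above (25% against 7.04% of all genes). Ferroportin, Slc40a1, was among them, at 64.2, 74.0 and 73.6 units in WT and 80.3, 170 and 91.7 units in Has2+/- lungs, a log2 difference of 0.61 with an adjusted p of 0.789. Steap3, an iron reductase of the endosome, was the other.

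Clec2d (ENSMUSG00000030157, chr6:129180615-129186534, mm10, plus strand) was read in every library. It stood at 776, 725 and 679 units in the WT saline libraries and at 1134, 1156 and 1050 units in the Has2+/- saline libraries. The lowest Has2+/- library lay well above the highest WT library. The means were 727 ± 48.8 and 1113 ± 56.1 units (SD, n = 3), and Clec2d rose by 0.62 on the log2 scale (SE 0.072, 95% interval 0.46 to 0.77, adjusted p = 0.00184). In the authors' deposited table its fold change was 1.52 with an FDR-corrected p of 0.000549. The call was lost with limma's empirical Bayes step run without its trend and robust options (adjusted p = 0.0781) and without libraries 5 and 12 (adjusted p = 0.0602, log2 difference 0.66).

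Clec2d had the same direction in the ovalbumin libraries, which share no group mean with the saline libraries but share the estimate of the spread. After ovalbumin it stood at 504, 494 and 463 units in WT and at 1075, 951 and 988 units in Has2+/- lungs, again with no overlap, a log2 difference of 1.04 (adjusted p = 1.73e-06). The genotype differences under ovalbumin and saline differed by 0.43 on the log2 scale, which did not pass (adjusted p = 0.281). Among the 11 tested Clec2 lectins and natural killer receptor genes, Clec2d was the only one whose saline groups did not overlap (9.09% against 7.04% of all genes). The related Clec2i, at 32.7, 45.7 and 42.8 units in WT and 41.9, 48.3 and 48.3 units in Has2+/- lungs, overlapped. Klrb1c, the NK1.1 receptor gene, stood at 35.0, 41.3 and 42.2 units in WT and 25.8, 23.4 and 39.8 units in Has2+/- lungs, with a log2 difference of -0.43 that did not pass (adjusted p = 0.929). Since these are bulk lungs, a change in the number of cells of a type and a change of RNA per cell cannot be told apart, for Hamp2 and Clec2d as for every gene below.

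Next below the threshold, the genes with the smallest p whose groups did not overlap are named here with their values, although they did not pass. Nfkbia encodes I-kappa-B-alpha, which holds NF-kappa-B in the cytoplasm. It stood at 1605, 1362 and 1408 units in WT and 1002, 1130 and 1089 units in Has2+/- lungs, a log2 difference of -0.44 (SE 0.073) with an adjusted p of 0.107. All Has2+/- libraries were below all WT libraries. After ovalbumin it was lower in Has2+/- lungs by -0.82 (adjusted p = 4.26e-05), at 1985, 2227 and 2204 units in WT and 1174, 1201 and 1258 units in Has2+/- libraries. Under saline it passed when only the saline libraries were fitted (adjusted p = 0.0383) and with library quality weights (adjusted p = 0.0246). Of the 12 NF-kappa-B feedback genes 9 had positive and 3 negative differences under saline, with a median of 0.10. After ovalbumin 0 of the 12 had positive ones and 3 passed as lower (against 0.363% of all genes). Under saline 2 lay apart with Has2+/- above (16.7% against 7.04% of all genes), among them Nfkbiz at 262, 312 and 269 units in WT and 360, 367 and 336 units in Has2+/- lungs, and 2 lay below (16.7% against 6.32%), Nfkbia and Tnfaip3.

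Egr1 and Fos are immediate early genes, transcribed within minutes of a stimulus to a cell. Egr1 stood at 517, 395 and 321 units in WT and 1007, 736 and 775 units in Has2+/- lungs, a log2 difference of 1.04 (SE 0.172, adjusted p = 0.357). Fos stood at 208, 108 and 95.8 units in WT and 458, 327 and 364 units in Has2+/- lungs, a log2 difference of 1.55 (SE 0.274, adjusted p = 0.364). In both genes the groups did not overlap, and WT library 4 was the highest of its group. Without library 4 both passed, with adjusted p = 0.00577 for Egr1 and 0.000141 for Fos. In the authors' deposited table both were called, with fold changes of 2.04 and 2.81 and FDR-corrected p-values of 0.000175 and 8.94e-05. After ovalbumin the groups overlapped in both genes, and the log2 differences were 0.16 and 0.03.

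Other immediate early genes lay on the opposite side. Jun, which pairs with Fos in the AP-1 factor, stood at 2992, 2953 and 2835 units in WT and 2505, 2375 and 2523 units in Has2+/- lungs, a log2 difference of -0.25 that did not pass (adjusted p = 0.4). Of the 21 immediate early genes tested, 0 passed, 5 lay apart with Has2+/- above (23.8% against 7.04% of all genes) and 3 with Has2+/- below (14.3% against 6.32%), and the median log2 difference was -0.05. Among the 17 glucocorticoid targets, which follow the stress hormone and the hour of the day, 0 passed, 2 lay above (11.8% against 7.04%) and 5 below (29.4% against 6.32%), with a median of -0.21. They included Ddit4, an inhibitor of mTOR signalling, at 375, 325 and 280 units in WT and 186, 221 and 217 units in Has2+/- lungs (adjusted p = 0.813). Of the 17 circadian clock genes 1 lay above (5.88% against 7.04%) and 3 below (17.6% against 6.32%). Their median was 0.02, with 10 positive and 7 negative differences. The hour of collection is not given in the labels.

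Of the other genes named as higher, 0 passed under saline. Clk1, a kinase of splicing factors, stood at 754, 774 and 850 units in WT and 985, 1027 and 1014 units in Has2+/- lungs (log2 difference 0.35, adjusted p = 0.294). Fzd6, a Wnt receptor, stood at 244, 219 and 222 units in WT and 350, 327 and 359 units in Has2+/- lungs, a log2 difference of 0.60 (adjusted p = 0.359), and passed when only the saline libraries were fitted (adjusted p = 0.0218). Its difference after ovalbumin was 0.47 (adjusted p = 0.0684). Ctnnd2, which encodes delta-catenin of cell junctions, stood at 99.7, 133 and 147 units in WT and 172, 207 and 212 units in Has2+/- lungs (log2 difference 0.65), and was the only gene of this paragraph that passed after ovalbumin (log2 difference 0.63, adjusted p = 0.0446). Ahr, the receptor for dioxins and related ligands, stood at 882, 952 and 813 units in WT and 1038, 1109 and 1153 units in Has2+/- lungs. Pcdh17, a protocadherin, and Btbd3, a BTB domain protein, had log2 differences of 0.39 and 0.33. Their groups do not overlap because the rule for naming genes asked for that.

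Of the genes named as lower, 0 passed. Ngp, a granule protein made by immature neutrophils, stood at 46, 57.3 and 20 units in WT and 3.08, 12.1 and 6.67 units in Has2+/- lungs, a log2 difference of -2.38 (SE 0.481, adjusted p = 0.364). The authors' deposited table calls it, with a fold change of -5.41 and an FDR-corrected p of 0.00345. Mpo, a granule peroxidase of the same immature cells, was at 1.92, 14.1 and 0 units in WT and listed at 0 in all 3 Has2+/- libraries. The 12 tested neutrophil genes as a whole had a median of 0.11, with 1 gene below (8.33% against 6.32%), which was Ngp.

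Cyp2e1, a cytochrome P450 that oxidizes ethanol and other small molecules, stood at 136, 280 and 197 units in WT and 72.8, 56.7 and 112 units in Has2+/- lungs, a log2 difference of -1.33 (SE 0.275, adjusted p = 0.382). Its Has2+/- values were highest in library 12 and its WT values lowest in library 4, and after ovalbumin the difference was 0.46 (adjusted p = 0.447). Slc27a1, a fatty acid transporter, stood at 415, 535 and 585 units in WT and 349, 360 and 372 units in Has2+/- lungs (log2 difference -0.49), and passed only without library 4 (adjusted p = 0.0337). Pprc1, a coactivator of mitochondrial biogenesis, was at 365, 368 and 332 units in WT and 272, 242 and 279 units in Has2+/- lungs (log2 difference -0.42). Irx2, a homeobox factor, was at 555, 584 and 633 units against 448, 399 and 490 units. Rapgef3, the cyclic AMP sensor Epac1, had a log2 difference of -0.39, Spef2, a protein of motile cilia and sperm tails, one of -0.46, Banp, a nuclear DNA-binding protein, one of -0.70 and Palmd, which encodes palmdelphin, one of -0.45. The adjusted p of the genes in this paragraph lay between 0.364 and 0.4 under saline.

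After ovalbumin, 112 genes passed as higher in Has2+/- lungs (0.589%) and 69 as lower (0.363%). Of those 181 genes, 1, Clec2d, had also passed under saline. Among the 20 named genes, 9 of the 10 higher and 5 of the 10 lower had the same sign after ovalbumin, and 2 and 1 of them passed there. Over all 19017 genes 54.2% had the same sign in both comparisons, over the 1069 genes with an unadjusted p under 0.05 under saline 63%. Of the 2541 genes whose saline groups did not overlap, 270 lay above and 184 below in both comparisons, 41 lay above under saline and below after ovalbumin, and 76 the other way round. The difference between the genotype differences passed for 3 genes (0.0158%), Hamp2, Junb and Muc16.

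**Figure D2:**
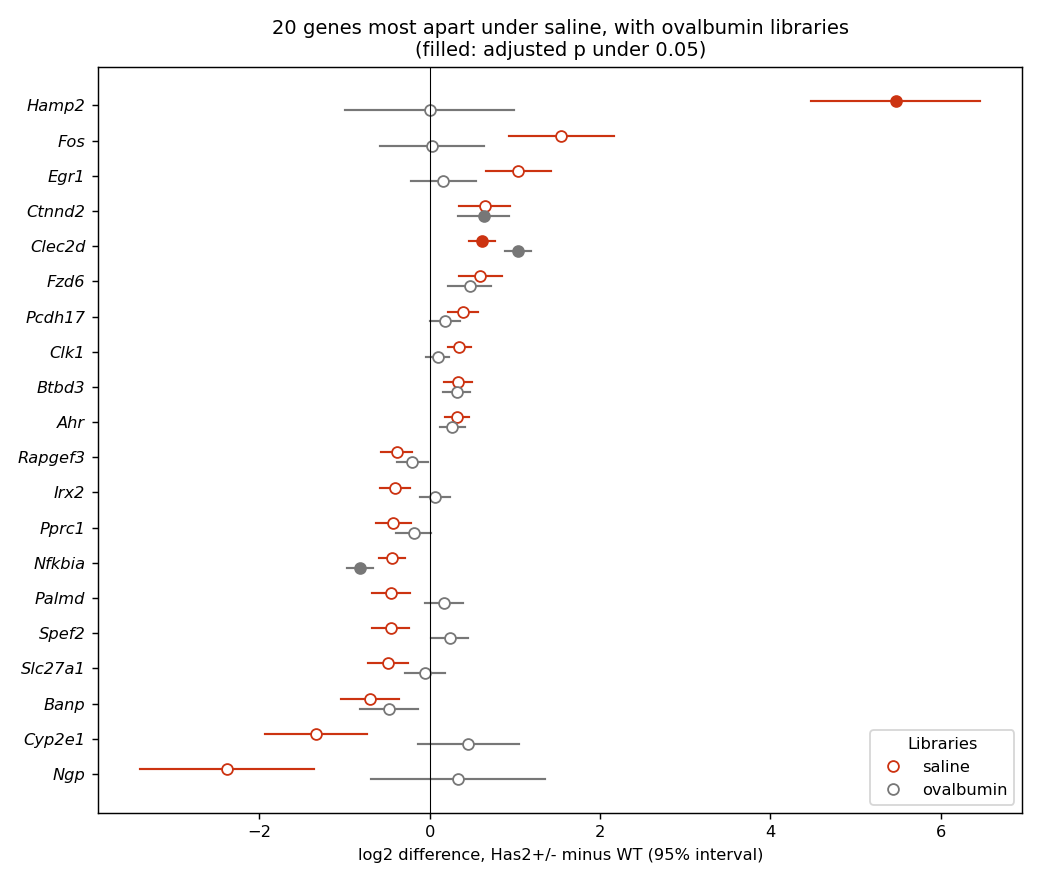
Log2 difference between Has2+/- and WT (horizontal axis, points with 95% intervals) under saline (red) and after ovalbumin (grey) for the 20 genes chosen on the saline libraries; filled points have an adjusted p under 0.05. Clec2d at 0.62 and 1.04 passed in both, whereas Hamp2 was listed at 0 in all ovalbumin libraries and Ngp and Cyp2e1 lay on the other side of 0 there.

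Hyaluronan genes other than the synthases showed small differences. Of 7 genes of hyaluronan synthesis, Has2 was the 1 that lay apart (14.3% against 7.04% of all genes), and the median log2 difference was 0.06. The precursor enzymes Ugdh and Uap1 had differences of -0.05 and 0.06. Of 23 genes of hyaluronan turnover and binding 0 passed and 2 lay apart with Has2+/- above (8.70%, near the 7.04% of all genes). They were Tlr2, a Toll-like receptor, at 132, 133 and 127 units in WT and 149, 170 and 175 units in Has2+/- lungs (log2 difference 0.33, adjusted p = 0.789), and Vcan, the proteoglycan versican, at 162, 197 and 175 units in WT and 213, 249 and 237 units in Has2+/- lungs (log2 difference 0.39, adjusted p = 0.798). Cd44, the main cell surface receptor of hyaluronan, overlapped, at 1301, 1494 and 1319 units against 1433, 1443 and 1615 units. Collagen chain genes (18 tested) had 0 above and 1 below (5.56% against 6.32% of all genes), with a median of 0.02. TGF-beta signalling genes (20 tested) had 1 above (5% against 7.04%) and 2 below (10% against 6.32%), with a median of 0.00. Smad7, an inhibitor of TGF-beta signalling, was the one of them with the smallest p, at 1590.1, 1673 and 1525 units in WT and 1355, 1194 and 1286 units in Has2+/- lungs (log2 difference -0.32, adjusted p = 0.656).

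Inflammatory genes did not pass in either direction. Of 17 proinflammatory cytokine and chemokine genes 2 lay above (11.8% against 7.04% of all genes) and 1 below (5.88% against 6.32%). Ptgs2, the inducible cyclooxygenase, stood at 33.2, 44.8 and 39.4 units in WT and 51.0, 70.4 and 80.7 units in Has2+/- lungs (log2 difference 0.75, adjusted p = 0.666), and its difference after ovalbumin passed (1.02, adjusted p = 0.0366). Osm, the cytokine oncostatin M, stood at 19.1, 22 and 14.3 units in WT and 8.83, 10.3 and 8.33 units in Has2+/- lungs (log2 difference -0.93, adjusted p = 0.669). Of 19 tested genes of type 2 cytokines, alarmins and their receptors 1 lay above and 1 below (5.26% each, against 7.04% and 6.32%). Il13 was at 0, 1.00 and 1.00 units in WT and 1.92, 1.00 and 1.00 units in Has2+/- lungs. Of 20 type I interferon-stimulated genes 1 lay above (5% against 7.04%) and 0 below (0% against 6.32%).

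Marker lists of lung cell types were tested gene by gene, and 0 of their genes passed. Fat cell genes had the lowest median, -1.17 over 11 genes. All 11 had negative differences, 4 lay apart with Has2+/- below (36.4% against 6.32% of all genes) and 9 had an unadjusted p under 0.05 (against 3.01% of all genes). Their summed level was 3128, 6732 and 6707 units in WT and 1964, 1778 and 3125 units in Has2+/- lungs, so that WT library 4 and Has2+/- library 12 lay 3 units apart. Cidec, a lipid droplet protein, stood at 200.8, 322 and 329 units in WT and 107, 105 and 197 units in Has2+/- lungs (log2 difference -1.08, adjusted p = 0.528). Cfd, adipsin, stood at 813, 2413 and 2033 units in WT and 372, 281 and 833 units in Has2+/- lungs, where library 12 overlapped library 4 (log2 difference -1.84, adjusted p = 0.717), and is called in the authors' deposited table with a fold change of -3.57 and an FDR-corrected p of 0.00214. Without libraries 5 and 12 the median of the fat cells list was -1.80 and 7 of its genes had an unadjusted p under 0.05. Cyp2e1 and Slc27a1, above, were likewise lowest in library 4 among WT and highest in library 12 among Has2+/- libraries, and the part of fat in their values was not tested. After ovalbumin the list's median was 0.41, at sums of 789 to 1275 units in those libraries.

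Erythroid genes lay on the other side. Of 8 tested, 6 lay apart with Has2+/- above (75% against 7.04%), 1 had an unadjusted p under 0.05 and the median was 0.68. Their sums were 18800, 18619 and 22216 units in WT and 25035, 44661 and 25280 units in Has2+/- lungs, library 11 standing highest. Hbb-bt, a beta-globin gene, stood at 1288, 1153 and 1389 units in WT and 1697, 3632 and 1852 units in Has2+/- lungs (log2 difference 0.82, adjusted p = 0.894). Without library 11 the median of the erythroid cells list was 0.36 and 0 of its genes had an unadjusted p under 0.05. After ovalbumin the list's median was 0.72, 8 of 8 differences were positive and 0 genes passed. The sums there were 7199, 16731 and 14467 units in WT and 17308, 22720 and 17632 units in Has2+/- lungs.

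**Figure D3:**
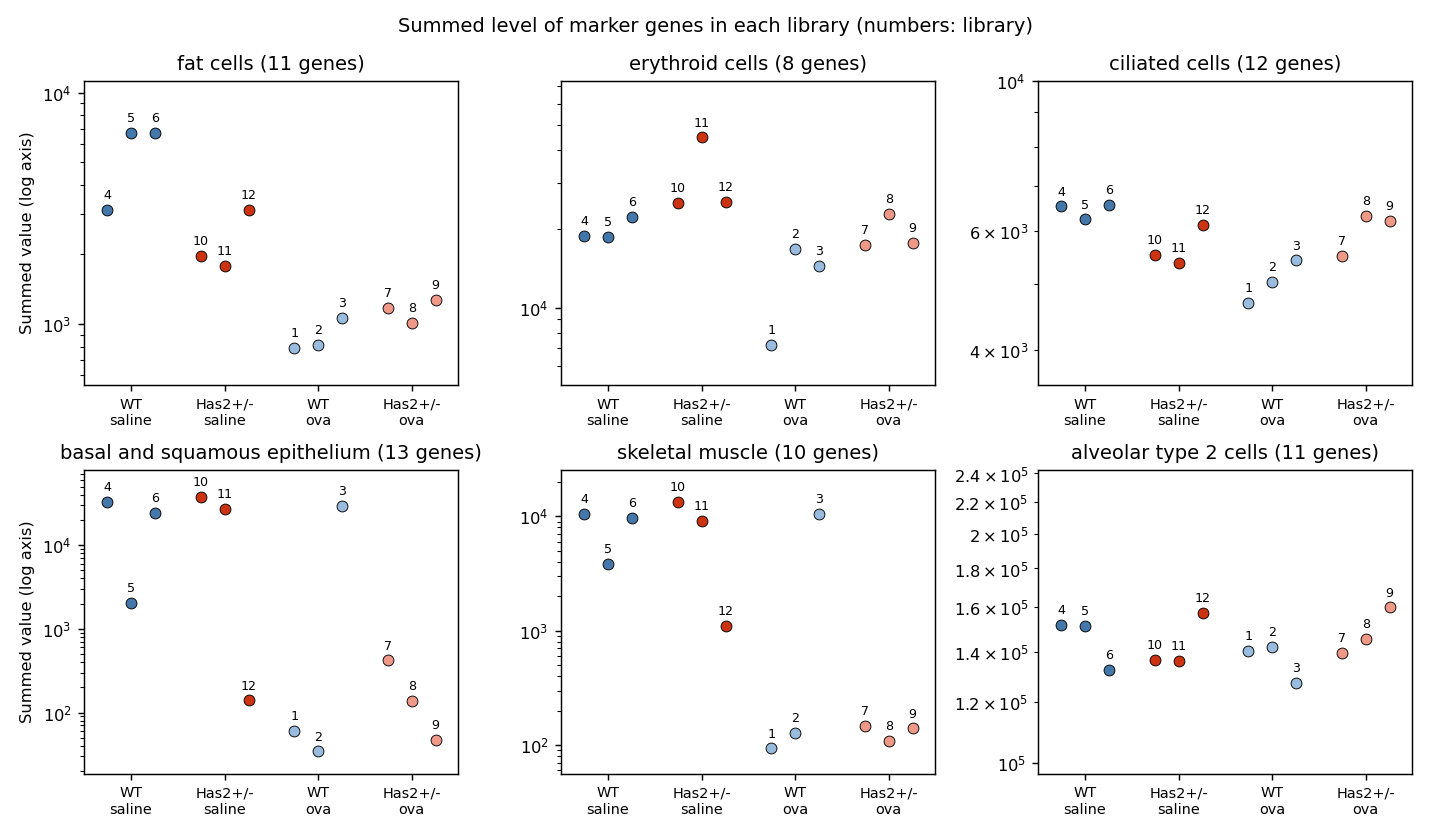
Summed normalized value of the marker genes of 6 cell types in each library (vertical axes, logarithmic), by group, with the library number at each point. Fat cell sums are lowest in Has2+/- libraries 10 and 11 among the saline libraries, erythroid sums are highest in library 11, and squamous epithelium and skeletal muscle sums are low in libraries 5 and 12 and in all ovalbumin libraries except library 3.

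Ciliated cell genes had 12 of 12 negative differences, a median of -0.21, and 4 genes apart with Has2+/- below (33.3% against 6.32% of all genes), and 5 had an unadjusted p under 0.05 (against 3.01%). Foxj1, the master factor of motile cilia, stood at 842, 764 and 831 units in WT and 636, 701 and 722 units in Has2+/- lungs (log2 difference -0.24, adjusted p = 0.789). Tekt1, a protein of the axoneme, stood at 108, 117 and 124 units in WT and 64.9, 87.4 and 103 units in Has2+/- lungs (log2 difference -0.47, adjusted p = 0.798). After ovalbumin the median of these genes was 0.22 and 10 of 12 differences were positive. Smooth muscle and pericyte genes (11 tested, median -0.21) included Myh11, smooth muscle myosin, at 3801, 3694 and 3847 units in WT and 3587, 2750.0 and 2980.0 units in Has2+/- lungs. Alveolar type 2 genes (11 tested, median 0.05) had 2 apart with Has2+/- above (18.2% against 7.04% of all genes) and 0 below. Alveolar type 1 genes (10 tested, median -0.02) had 0 apart. T cell genes had 0 of 13 and B and plasma cell genes 0 of 12 apart, whereas natural killer and cytotoxic genes had a median of -0.40 over 11 genes, with 10 negative and 0 apart. Of the 11 alveolar macrophage genes 2 lay above (18.2% against 7.04% of all genes) and 1, Cidec, below (9.09% against 6.32%). Of 6 eosinophil genes 2 lay above (33.3% against 7.04%) and 0 below.

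Large gene families showed small differences. Among 352 tested C2H2 zinc finger genes, which encode transcription factors with zinc-binding repeats, 0 passed, 55 lay apart with Has2+/- above (15.6% against 7.04%) and 12 below (3.41% against 6.32%), and the median log2 difference was 0.06. Zfp503 stood at 619, 633 and 543 units in WT and 747, 843 and 677 units in Has2+/- lungs (log2 difference 0.33, adjusted p = 0.610). Zfp783 was on the other side, at 71.8, 84.2 and 82.6 units against 57.5, 52.8 and 55.9 units. After ovalbumin the median of these genes was 0.23, against 0.01 over all genes. Of the 352, 13 passed there as higher (against 0.589% of all genes) and 1 as lower (against 0.363%).

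Of 83 cytosolic ribosomal protein genes 23 lay apart with Has2+/- below (27.7% against 6.32%) and 1 above (1.2% against 7.04%). Of the 83, 68 had negative differences, and the median was -0.07. Rpl38, of the large subunit, stood at 975, 993 and 974 units in WT and 809.6, 906 and 907 units in Has2+/- lungs (log2 difference -0.17, adjusted p = 0.812). Without libraries 5 and 12 the median was -0.05, and 2 genes had an unadjusted p under 0.05 as higher and 0 as lower, against 1 and 6 with all libraries. Nuclear genes of the respiratory chain (77 tested) had 8 below (10.4% against 6.32%) and 1 above (1.3% against 7.04%), with a median of -0.05. Of 20 cell cycle genes 19 had positive differences, with a median of 0.28 and 4 apart with Has2+/- above (20% against 7.04%). Ccnb2, cyclin B2 of mitosis, stood at 24.5, 22.8 and 17.5 units in WT and 28.9, 37.5 and 36.5 units in Has2+/- lungs (log2 difference 0.65, adjusted p = 0.798). After ovalbumin 6 of the 20 cell cycle genes had positive differences, with a median of -0.06 and 0 apart. Of 56 tested replication-dependent histone genes 33 had positive and 23 negative differences, with a median of 0.04. Of the 56, 1 lay above (1.79% against 7.04%) and 4 below (7.14%, near the 6.32% of all genes). The linker histone gene Hist1h1e had the smallest p of them, at 3632, 3678 and 3049.8 units in WT and 1996, 2476 and 2576 units in Has2+/- lungs (log2 difference -0.56, adjusted p = 0.541).

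**Figure D4:**
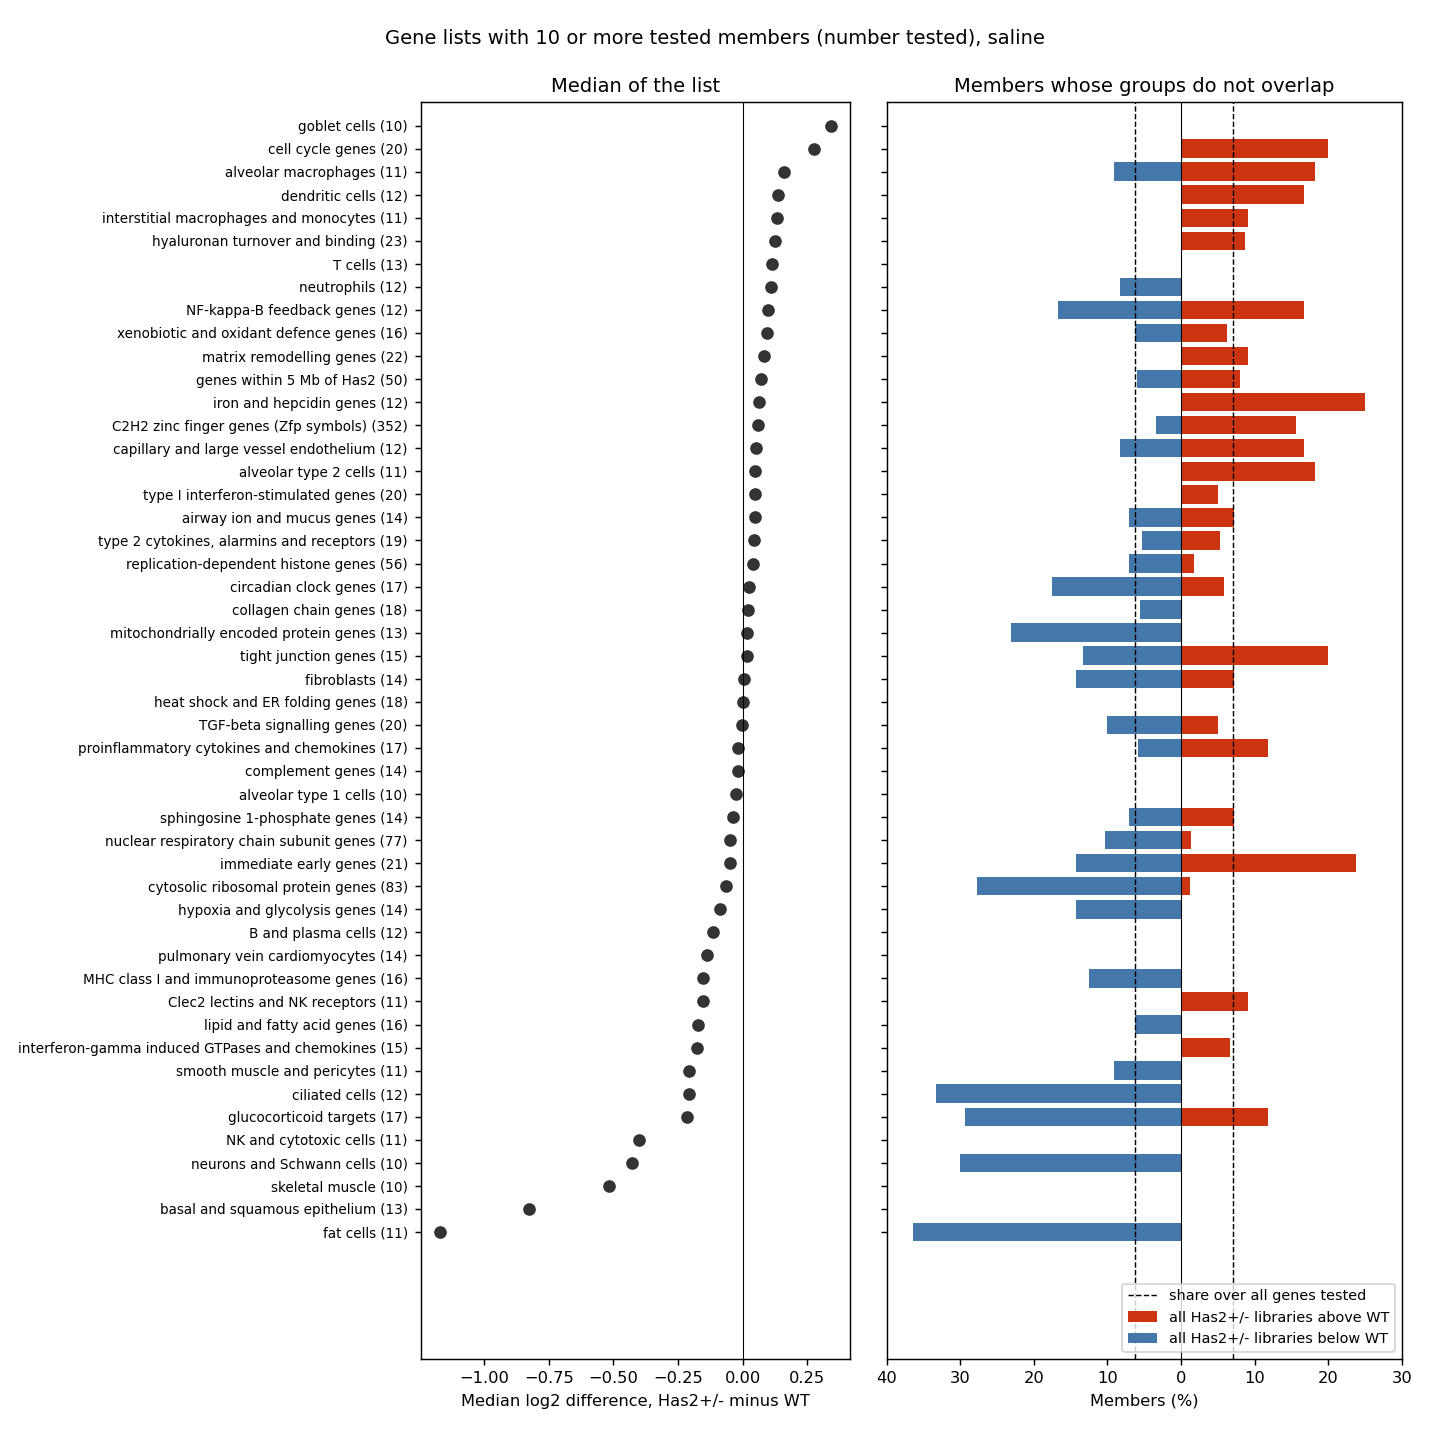
For each gene list with 10 or more tested members, the median log2 difference between Has2+/- and WT under saline (left) and the percentage of members whose Has2+/- libraries all lie above (red, to the right) or all below (blue, to the left) the WT libraries (right panel); dashed lines are the shares over all genes tested, 7.04% and 6.32%. Fat cell genes have the lowest median at -1.17, and the largest share below, 36.4%; ribosomal protein genes have 27.7% below at a median of -0.07.

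Genes around Has2 on chromosome 15 were looked at because they are inherited together with its knockout allele. Of 50 tested genes within 5 Mb of Has2, 4 lay above (8%) and 3 below (6%) under saline, close to the shares over all genes, and 0 passed. After ovalbumin 2 of the 50 passed as higher (against 0.589% of all genes) and 0 as lower. They were Mal2 and Fam84b, with log2 differences of 0.47 and 0.66 after ovalbumin (adjusted p = 0.00789 and 0.00197). Mtbp, a binding partner of Mdm2, stood at 37.7, 50.3 and 44.1 units in WT and 62.2, 60.1 and 67.9 units in Has2+/- lungs (log2 difference 0.52, adjusted p = 0.789). Rnf139, a ubiquitin ligase, stood at 28.3, 35.4 and 31.0 units in WT and 19.6, 18.5 and 22 units in Has2+/- lungs (log2 difference -0.63, adjusted p = 0.798). Of all 708 tested genes of the chromosome 7.77% had an unadjusted p under 0.05, against 5.62% of all genes. The chromosome holds 708 of the 19017 genes tested, and Fzd6, Ctnnd2, Rapgef3 and Spef2 of the 20 genes named as higher or lower. These named genes lie between 17.6 and 46.9 Mb from Has2, and their number was not tested.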

How the data were processed

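Lung RNA of 12 libraries in 4 groups of 3 was measured by stranded RNA sequencing from 500 ng of total RNA, per the labels' protocols; the build was mm10, per the submitters' processing notes, and no aligner or counter is named (not given in the sources used here). Signal values are the authors' deposited normalized expression values: sorted, all 12 columns are identical, with a sum of 6852201 over 49585 genes, so the counts behind them were quantile-normalized, and with the depth unknown no counting intervals are given. Of these genes 26190 are at 0 in every library. The authors' deposited score column holds signed fold changes and their p-value column FDR-corrected p-values of an EDGE test, per the file headers. Columns were tied to groups by their codes; their running number matches no title, so no column was tied to one sample.

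Here limma 3.58.1 (R 4.3.3) was fitted to log2(value + 1) with trend and robust empirical Bayes, all 12 libraries, 1 mean per group and no covariate, on 19017 genes (those whose mean reached 1 in any group). Tests were two-sided, with Benjamini-Hochberg adjustment over those genes at 0.05; the residual degrees of freedom were 8. The code was tested on simulated data. The members, gene lists and rules were chosen with earlier results of these data known. Named genes are Has1, Has2 and Has3, genes that passed, and, up to 10 in each direction, those with the smallest p whose groups did not overlap and whose higher mean was at least 20; lists name up to 3 genes by smallest p, and other genes with values were chosen after these were seen; some genes are not reported here. The alternatives were other pseudocounts, filters, libraries, weights and empirical Bayes options. Positions were matched to GENCODE M21 by identifier (49326 genes), 45128 of them identical. Promoters are from RefSeq, and transcripts were aligned with Biopython 1.88.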

Additional observations from a re-analysis of the deposited data

Results flagged for a closer look

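In 3 genes the genotype difference under saline and that after ovalbumin differed by the interaction test of the limma fit over all genes. For Hamp2 the interaction was -5.47 on the log2 scale (adjusted p = 0.00627): it was at 62.1, 59.2 and 63.9 units in Has2+/- saline libraries and listed at 0 in every ovalbumin library. For Junb, an AP-1 subunit, it was -1.14 (adjusted p = 0.0331), with 710, 743 and 683 units in WT and 843, 997 and 812 units in Has2+/- lungs under saline, and 1758, 1342 and 1630 units against 1006, 854 and 786 units after ovalbumin. The Has2+/- libraries were thus above WT under saline and below it after ovalbumin, with no overlap in either. For Muc16, a membrane mucin, it was 0.88 (adjusted p = 0.0481), with 628, 526 and 576 units in WT and 478, 447 and 448 units in Has2+/- lungs under saline, and 279, 321 and 333 units against 405, 517 and 448 units after ovalbumin. Its direction was the opposite of that of Junb, again with no overlap. Under saline neither difference passed, at 0.31 for Junb (adjusted p = 0.798) and -0.33 for Muc16 (adjusted p = 0.680). After ovalbumin both passed, at -0.84 for Junb (adjusted p = 0.00563) and 0.55 for Muc16 (adjusted p = 0.0129). The interaction test shares the saline libraries with the saline comparison.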

How the results depend on the processing

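The numbers of genes that passed, 2 higher and 0 lower, were recomputed under 16 alternatives. With a pseudocount of 0.1 there was 1 higher gene, Clec2d, and without libraries 5 and 12, an alternative chosen after seeing the data, also 1, Hamp2. With only the 6 saline libraries fitted 3 genes passed as higher (Hamp2, Clec2d and Fzd6) and 4 as lower (Errfi1, Gata2 and Nfkbia among them). Without the trend and robust options 3 passed as higher (Hamp2, Gm45351 and Pkd2l1, not Clec2d) and 2 as lower (Gm3164 and Gm43194), and with array quality weights 1 passed as lower (Nfkbia). Leaving out 1 replicate at a time gave 2 to 4 genes higher and 0 to 4 lower; the 4 higher and 4 lower came without WT library 4, where Egr1, Fos, Slc27a1, Gpd1, Pcx and Slc25a1 joined, 1 lower came without library 10 and 2 (Cidec and Rasd1) without library 12. The log2 difference ranged from 3.59 to 7.85 for Hamp2 and from 0.57 to 0.66 for Clec2d. Of 367 values of named genes under alternatives, 358 stayed on their side of the threshold, 6 passed in addition, 3 no longer passed and 0 reversed. Most of these values belong to genes that had not passed. The 3 that no longer passed were all among the 16 values each of Hamp2 (pseudocount 0.1) and Clec2d (without the trend and robust options, and without libraries 5 and 12). Setting the squamous epithelium level as a covariate, also chosen after seeing the data, left 2 higher and 0 lower. The cause of these shifts was not tested. No paired analysis was possible because the columns carry a running library number and no replicate number of the labels.

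The median 95% half-width was 0.36 over all genes and 0.21 over genes with a mean of at least 100. A smaller difference in a typical gene thus had an interval that included 0. These intervals are not adjusted for the number of genes, and larger differences also failed to pass. Examples are Nfkbia at -0.44 (95% interval -0.60 to -0.28) and Fos at 1.55 (0.93 to 2.16). Samples were not tied to individual mice.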
